A study of Drosophila melanogaster with 6 samples.

Results

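The proteasome is the large protease that degrades proteins tagged with ubiquitin. Its barrel-shaped core particle holds rings of alpha subunits, which gate the entry, and of beta subunits, of which beta 1, beta 2 and beta 5 carry the proteolytic sites. A regulatory particle caps the barrel. Its base, built from Rpt ATPases and Rpn scaffold subunits, unfolds the substrate and threads it into the core, and its lid of Rpn subunits removes the ubiquitin chain. In flies, subunit transcripts are known to be raised together when the proteasome is impaired, through the transcription factor cnc, a relative of mammalian Nrf factors. The genome also holds duplicated copies of several subunit genes, many of them known for expression in the male germ line.

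The 43 proteasome genes described here were taken by name from the 15391 rows of a table of read counts per gene. They are the rows named Rpn, Rpt or Pros with a number, those beginning with Prosalpha or Prosbeta, and Mov34 and Tbp-1, which encode Rpn8 and Rpt5. Of these, 13 encode core particle subunits (7 alpha, 6 beta), 17 encode regulatory particle subunits (6 base ATPases, 3 base scaffold or receptor subunits, 8 lid subunits) and 13 are duplicated paralogs. Current symbols are used below: 10 of the 30 core and regulatory rows carry an older one, such as Pros26 for Prosbeta6 and Pros45 for Rpt6.

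The counts come from RNA sequencing of total RNA from whole midguts of adult Drosophila melanogaster. In 3 knockdown libraries (Rab11_KD), RNA interference against Rab11, a small GTPase of recycling endosomes, was driven by Myo1A-Gal4, a driver known for activity in enterocytes. The 3 control libraries come from flies labelled wild type (WT), and whether they carried the driver is not given in the sources used here. Flies of both groups were moved to 29 °C for 5 days at an age of 5 days. The labels tie no library to a pool of flies or to one of the 2 sequencing platforms they name, so the p-values measure the spread between these libraries, which may be technical.

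Libraries held 9818914 to 33082790 counts, and replicate 3 was the deepest in each group, with 33082790 counts for the knockdown and 30610335 for the wild type. Rab11 itself stood at 64.4, 78.2 and 78.7 CPM in the knockdown and at 319, 269.6 and 219 CPM in the wild type, so that the labels fit their target (log2 fold change -1.87 ± 0.23 SE, adjusted p = 0.00342). CPM are read counts scaled to a common library size after TMM normalisation. Log2 fold changes compare the knockdown with the wild type and come from edgeR's quasi-likelihood test over 8377 genes, and a gene was called when its Benjamini-Hochberg adjusted p was under 0.05. The samples are labelled as enterocytes but come from whole midguts. Of 6 enterocyte markers, all had enough counts to be tested, with a summed level of 7477 to 26446 CPM in the knockdown and 34026 to 59384 CPM in the wild type, most of it from 3 digestive enzymes. Visceral muscle markers summed to 594 to 761 CPM in the knockdown and 579.5 to 1494 CPM in the wild type. The highest sum was that of wild-type replicate 3, where each of the 8 markers had its highest wild-type level. Mhc, for example, stood at 141, 163 and 403 CPM in the wild type. In such bulk samples, a change in the number of cells of a type and a change of RNA per cell cannot be told apart.

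Transcripts of the core and regulatory particle stood higher in the Rab11 knockdown, subunit by subunit and by similar factors. The 29 subunit genes that could be tested had positive log2 fold changes, from 0.62 to 1.19, which is 1.54-fold to 2.29-fold, with a median of 0.91. Of these 29, 10 rose at the adjusted threshold and none fell, where 9.05% of all genes tested were called higher and 7.63% lower. Those that rose were Prosalpha4, Prosalpha5, Prosalpha7 and Prosbeta5 of the core, and Rpt5, Rpt6, Rpn8, Rpn9, Rpn10 and Rpn12 of the regulatory particle. At an unadjusted p under 0.05, 28 of the 29 passed with a higher level, against 16.8% of all genes. All of these genes passed the filter on low counts through both groups, since the lowest mean of any subunit was 56.5 CPM among wild-type and 112 CPM among knockdown libraries.

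**Figure D1:**
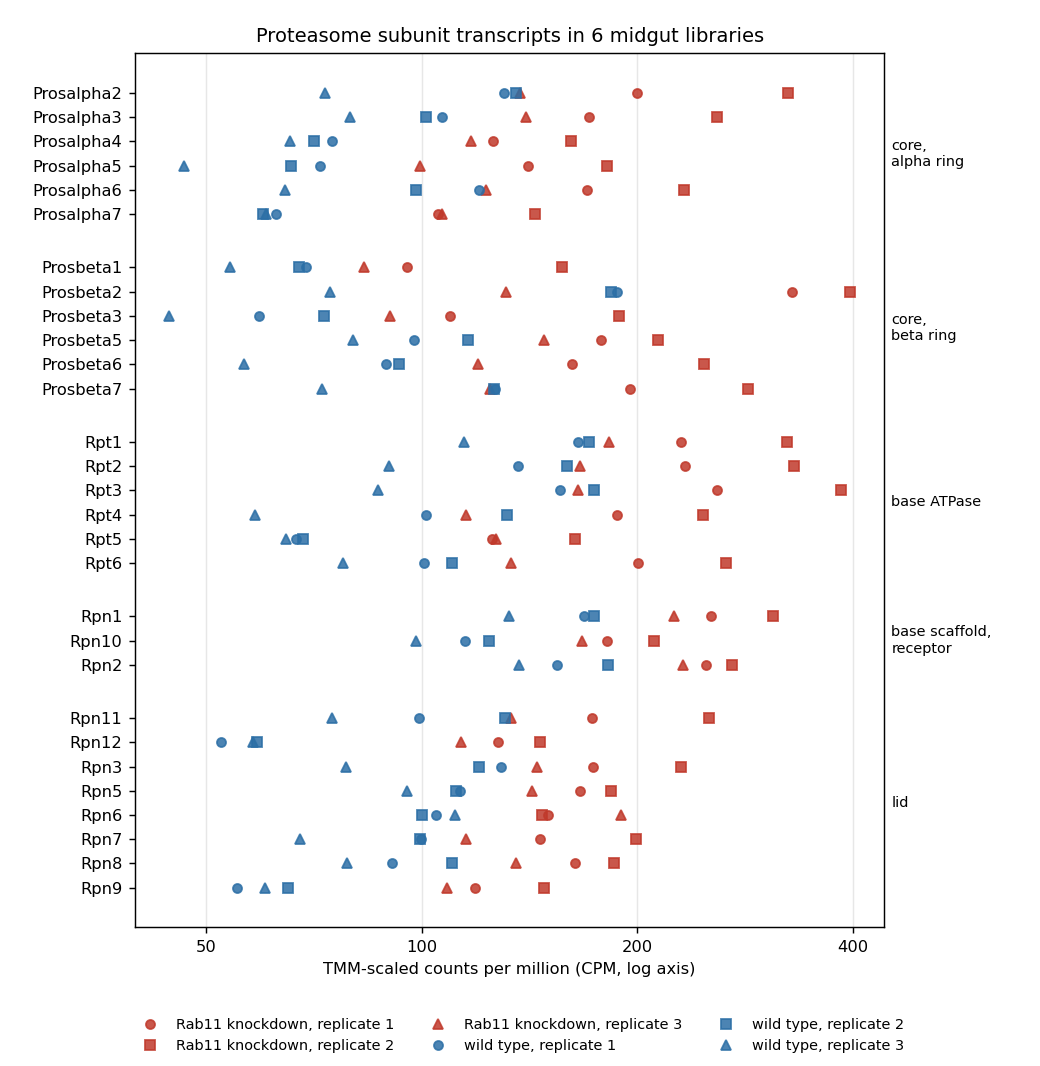
TMM-scaled CPM (log axis) of 29 proteasome subunit genes in each of 3 Rab11 knockdown (red) and 3 wild-type (blue) libraries, with the symbol giving the replicate number. For 25 of the 29 genes every red symbol lies right of every blue one, and replicate 3 is the lowest wild-type library for 25 genes.

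For 25 of the 29 subunits the lowest knockdown library lay above the highest wild-type library, as it did for 20.2% of all genes tested. The 4 subunits with overlapping ranges were Prosbeta2, Prosbeta7, Rpt3 and Rpt4. For each of these the library that overlapped was knockdown replicate 3. Knockdown replicate 2 was the highest library for 28 of the 29 subunits, and wild-type replicate 3 was the lowest for 25. These are levels after TMM scaling, in which a larger factor gives a lower CPM for the same share of counts. Replicates 1, 2 and 3 had TMM factors of 1.19, 0.901 and 1.45 (knockdown) and 0.779, 0.793 and 1.04 (wild type). Without TMM the 29 subunits took 0.611%, 0.611% and 0.579% of knockdown counts, and 0.242%, 0.260% and 0.234% of wild-type counts. The part of the scaling in the order of libraries was not tested.

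Libraries share replicate numbers across groups, but the labels do not say what a number marks. Deviations of same-numbered libraries correlated at 0.14, 0.21 and 0.71 across genes, and crossed pairs of numbers 1 and 2 at 0.34 and 0.51. Numbers 1 and 2 are thus not shown to be pairs, and a fit with the number as a block serves as an alternative. In that fit the 29 subunits passed as higher, 12 in the core and 17 in the regulatory particle. Of all genes, 15.2% were called higher and 14% lower in it. Within replicate number 1, the knockdown level over the wild-type level ranged from 1.34 to 2.43 across the subunits, with a median of 1.68. Within number 2 the ratio ranged from 1.47 to 2.76 with a median of 2.21, and within number 3 from 1.5 to 2.13 with a median of 1.78. No subunit had a ratio under 1 in any of the 3 numbers.

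Error and fold change differed among the subunits. Without the block, the 10 that rose had standard errors of 0.19 to 0.30 on the log2 scale, and the 19 that did not pass had standard errors of 0.19 to 0.50. The wild-type replicate 3 library stood below the mean of wild-type replicates 1 and 2 for 26 of the 29 subunits, and the knockdown replicate 3 library stood below the mean of the other knockdown libraries for 28. For subunits that passed, the median wild-type replicate 3 level was 0.860 of the mean of the other libraries, and for those that did not it was 0.651. Across the 29 subunits, the log2 ratio of replicate 3 to the other wild-type libraries went with the same ratio in the knockdown (Pearson r = 0.91, Spearman rho = 0.91) and with the standard error (r = -0.95, rho = -0.96). These are descriptions across genes that share the same 6 libraries and their TMM factors. The standard error is computed from the spread between those libraries, to which replicate 3 adds. Its relation to the replicate 3 ratio, and the contrast between subunits that passed and those that did not, are therefore in part built in.

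**Figure D2:**
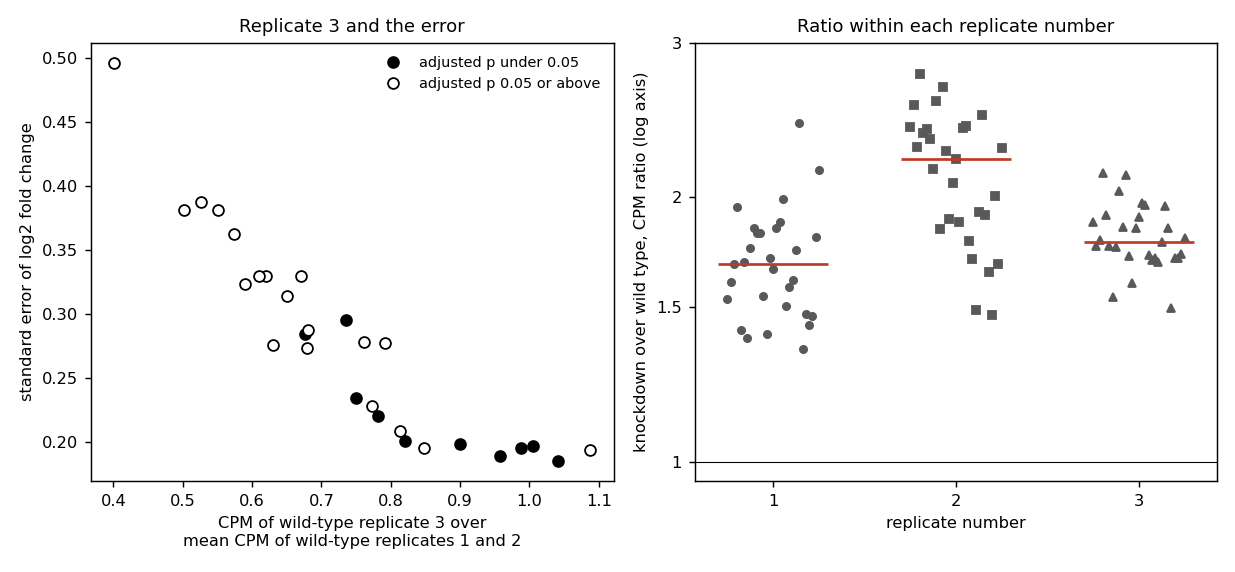
Left, standard error of the log2 fold change of each of 29 subunits against the CPM of wild-type replicate 3 relative to the mean of wild-type replicates 1 and 2. Filled points are subunits with an adjusted p under 0.05. Right, CPM ratio of knockdown to wild type within each replicate number (log axis), 1 point per subunit, with medians of 1.68, 2.21 and 1.78 as red lines.

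The number of calls moved when single libraries were left out, in fits that hold fewer samples. Without knockdown replicate 1, 2 or 3, the subunits called higher numbered 2, 3 and 11, against 3.25%, 4.05% and 6.88% of all genes. Without wild-type replicate 1, 2 or 3 they numbered 1, 3 and 3, against 3.21%, 4.6% and 6.14% of all genes. The direction was kept for the 29 subunits in each of these fits. Rpn12 alone passed in every one of the 6, where 2.66% of all genes were called higher with the full set and in each such fit. Without both replicate 3 libraries 14 subunits rose (9.95% of all genes), and DESeq2 called 17 higher (10.6% of the genes it tested). With library sizes alone 27 rose (13.8% of all genes) and with upper-quartile factors 14 rose (10.3%). Library sizes alone raise the median log2 fold change of all genes from 0.04 to 0.47, and relative to that median the subunits' own median was 0.86, against 0.88 with TMM.

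In the alpha ring, which forms the gate of the core, 6 of 7 genes were tested and 3 rose, with a median log2 fold change of 0.96 (range 0.89 to 1.19). Prosalpha7 stood at 105, 144 and 107 CPM in the knockdown and at 62.5, 60.1 and 60.6 CPM in the wild type. The wild-type libraries lay close together, below the 3 knockdown libraries, and the log2 fold change was 0.96 ± 0.20 (SE, adjusted p = 0.0187). Prosalpha4 stood at 126, 161 and 117 CPM against 74.8, 70.8 and 65.5 CPM, with a log2 fold change of 0.94 ± 0.20 (adjusted p = 0.0212). Prosalpha5 had the highest fold change in the core, at 141, 181 and 99.3 CPM in the knockdown against 72.1, 65.6 and 46.6 CPM in the wild type (1.19 ± 0.28, adjusted p = 0.0312). Its groups did not overlap, with replicate 3 lowest in each. Each of these 3 calls held without knockdown replicate 3 and in none of the other 5 fits that left out a library, with adjusted p of up to 0.0711, 0.0765 and 0.105. Prosalpha3, at 0.98, had an adjusted p of 0.0515.

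Prosalpha1, the remaining alpha subunit, is listed at 0 in each of the 6 libraries. Its near-identical duplicate Prosalpha1R, whose row lies outside the name rule, had 1 count in knockdown replicate 1 and 0 in the other libraries. How reads that match both copies were counted is not given in the sources used here, so the level of this subunit is uncertain and no change is reported for it.

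Among the 6 beta ring genes tested, 1 rose, and the median log2 fold change was 0.92 (range 0.82 to 1.15). The proteolytic subunits differed little in their fold and more in their spread. Prosbeta5, of the chymotrypsin-like site, stood at 178, 214 and 148 CPM in the knockdown and at 97.5, 116 and 80.1 CPM in the wild type. Its groups did not overlap, the ratio within the replicate numbers was 1.82, 1.84 and 1.85, and the log2 fold change was 0.88 ± 0.23 (adjusted p = 0.0438, and 0.0448 to 0.139 with single libraries left out). Prosbeta1, of the caspase-like site, stood at 95.4, 157 and 83.0 CPM against 69.0, 67.3 and 53.9 CPM. The groups were separate, and at 0.82 ± 0.28 it had the lowest log2 fold change in the core (adjusted p = 0.0869, and 0.0339 with the block).

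Prosbeta2, of the trypsin-like site, stood at 328, 396 and 131 CPM in the knockdown and at 187, 184 and 74.5 CPM in the wild type. Replicate 3 stood at 0.361 of the mean of the other knockdown libraries and at 0.402 of the mean of the other wild-type libraries, and the groups overlapped. Its log2 fold change of 0.94 ± 0.50 had an adjusted p of 0.237, and the ratio within the replicate numbers was 1.75, 2.16 and 1.76 (adjusted p = 0.0165 with the block). Prosbeta3 and Prosbeta6, at 1.14 and 1.15, had adjusted p of 0.056 and 0.0535, and 0.00783 and 0.00899 with the block.

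**Figure D3:**
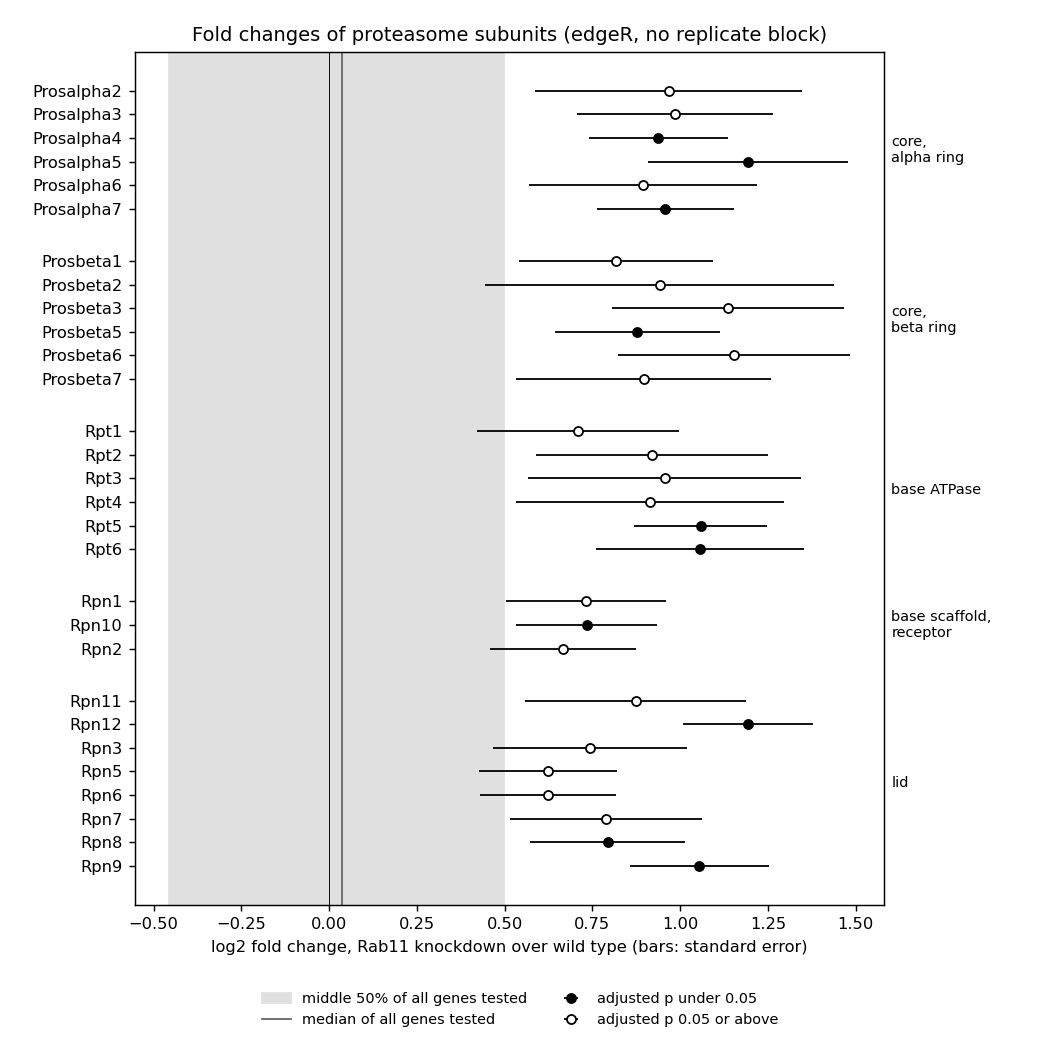
Log2 fold change of knockdown over wild type with its standard error for 29 proteasome subunits, grouped by their place in the complex. Filled points have an adjusted p under 0.05, and the grey band holds the middle 50% of all 8377 genes tested. The points lie between 0.62 and 1.19, right of the band.

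In the base, 2 of 6 ATPase genes rose, with a median log2 fold change of 0.94 (range 0.71 to 1.06). The ATPases form the ring that unfolds substrates. Rpt5 stood at 125, 164 and 127 CPM in the knockdown and at 66.8, 68.2 and 64.7 CPM in the wild type. The groups were well apart, with a log2 fold change of 1.06 ± 0.19 (adjusted p = 0.0121), and the call was lost without wild-type replicate 1 (0.055). Rpt6, at 200.4, 266 and 133 CPM against 101, 110.2 and 77.5 CPM, had a log2 fold change of 1.06 ± 0.30 that lay just past the threshold (adjusted p = 0.0497, and up to 0.149 without single libraries). The other ATPases lay at log2 fold changes of 0.71 for Rpt1 to 0.96 for Rpt3 and did not pass without the block.

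Of the remaining base genes, the ubiquitin receptor Rpn10 rose, and the scaffold subunits Rpn1 and Rpn2 did not pass. Rpn10 stood at 181, 211 and 167 CPM in the knockdown and at 114.8, 124 and 98.0 CPM in the wild type, with separate groups and a log2 fold change of 0.73 ± 0.20 (adjusted p = 0.047, and 0.0583 to 0.148 with single libraries left out). Rpn1 and Rpn2 had log2 fold changes of 0.73 and 0.67 (adjusted p = 0.0686 and 0.0692).

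In the lid, 3 of 8 genes rose, with a median log2 fold change of 0.79 (range 0.62 to 1.19). Rpn12, a lid subunit, stood at 128, 146 and 113 CPM in the knockdown and at 52.5, 58.9 and 58.0 CPM in the wild type. The groups were far apart, and the log2 fold change of 1.19 ± 0.19 had the smallest p of the 29 subunits (adjusted p = 0.00713, and 0.0117 to 0.0421 with single libraries left out). Rpn9 stood at 118, 148 and 109 CPM against 55.1, 65.1 and 60.4 CPM, a log2 fold change of 1.05 ± 0.20 (adjusted p = 0.0141). Its groups were separate, and the call did not hold with knockdown replicate 1 (0.0579) or wild-type replicate 1 (0.0659) left out.

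Rpn8, the partner of the deubiquitinase Rpn11 in the lid, stood at 164, 185 and 136 CPM in the knockdown and at 90.8, 110.2 and 78.6 CPM in the wild type (log2 fold change 0.79 ± 0.22, adjusted p = 0.0488). The call did not hold in any fit without a single library (0.0504 to 0.158). Rpn11 itself, which cuts the ubiquitin chain from the substrate, stood at 173, 252 and 133 CPM against 99.1, 131 and 74.8 CPM (0.87 ± 0.31, adjusted p = 0.101, and 0.0153 with the block). Rpn6, which bridges lid and core, had the lowest log2 fold change of the 29 subunits, at 0.62 ± 0.19 (adjusted p = 0.0684). It stood at 149.9, 147 and 189.8 CPM in the knockdown, above 105, 100.1 and 111 CPM in the wild type. It was the 1 subunit whose highest knockdown library was replicate 3.

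The fold changes of core and regulatory genes overlapped. The median log2 fold change was 0.95 in the core (middle 50% from 0.90 to 1.02) and 0.79 in the regulatory particle (0.73 to 0.96), and the difference between the particles was not tested. Over the 29 subunits the middle 50% spanned 0.19 on the log2 scale, while over all genes tested it spanned 0.95, from -0.46 to 0.50 around a median of 0.04. A log2 fold change above that of the lowest subunit, Rpn6, was found in 20.2% of all genes, and one above that of Prosalpha5 in 8.26%. Longer genes had the smaller fold changes among the subunits (r = -0.59, rho = -0.59 with exonic length across 29 genes), as a description. Core genes had 0.852 to 1.22 kilobases of exon and regulatory genes 0.995 to 3.41. Length thus goes with the particle, and the relations of the fold change to each were not separated.

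Knockdown libraries gave 0.611%, 0.611% and 0.579% of their counts to the 29 subunit genes, and wild-type libraries gave them 0.242%, 0.260% and 0.234%. The shares lay close together within each group and did not overlap, at 0.6005 ± 0.0182% and 0.245 ± 0.0134% (SD, n = 3), a ratio of 2.45. This ratio is larger than the fold changes above because it is not scaled by TMM. The 20 most abundant genes held 10.1% to 17.1% of each knockdown library and 23.8% to 28.103% of each wild-type library, and without those genes the ratio of the shares was 2.12. The share of core genes was 0.0892 ± 0.00791% in the wild type and 0.231 ± 0.0237% in the knockdown, and that of regulatory genes 0.156 ± 0.00879% and 0.370 ± 0.00825%. The shares were not tested.

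Levels were compared between subunits per kilobase of exon. In the wild type they spanned 35.8 CPM per kilobase for Rpn9 to 144 for Prosbeta2, a range of 4.01-fold, and in the knockdown 73.4 for Rpn2 to 276 for Prosbeta2, a range of 3.76-fold. The median was 85.1 CPM per kilobase for core genes and 60.8 for regulatory genes in the wild type, and 161 and 110.4 in the knockdown. Prosbeta2 and Prosalpha2 were the most abundant per length in both groups. Prosbeta2, at 144 ± 62.0 and 276 ± 133 CPM per kilobase (SD, n = 3), did not differ from Prosalpha2, at 123 ± 37.5 and 239.8 ± 104, beyond the spread between libraries. At the low end of the wild type stood Rpn2, Rpt5 and Rpn9, at 46.2 ± 6.65, 40.9 ± 1.10 and 35.8 ± 2.96 CPM per kilobase. Of the 28 pairs of neighbours in the wild-type order, 27 differed by less than the larger SD of the pair, the exception being Rpt5 and Rpn9. Neighbours in a sorted order lie close by construction, and the SDs include shifts that subunits share within a library. This count therefore does not show whether subunits differ in level.

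**Figure D4:**
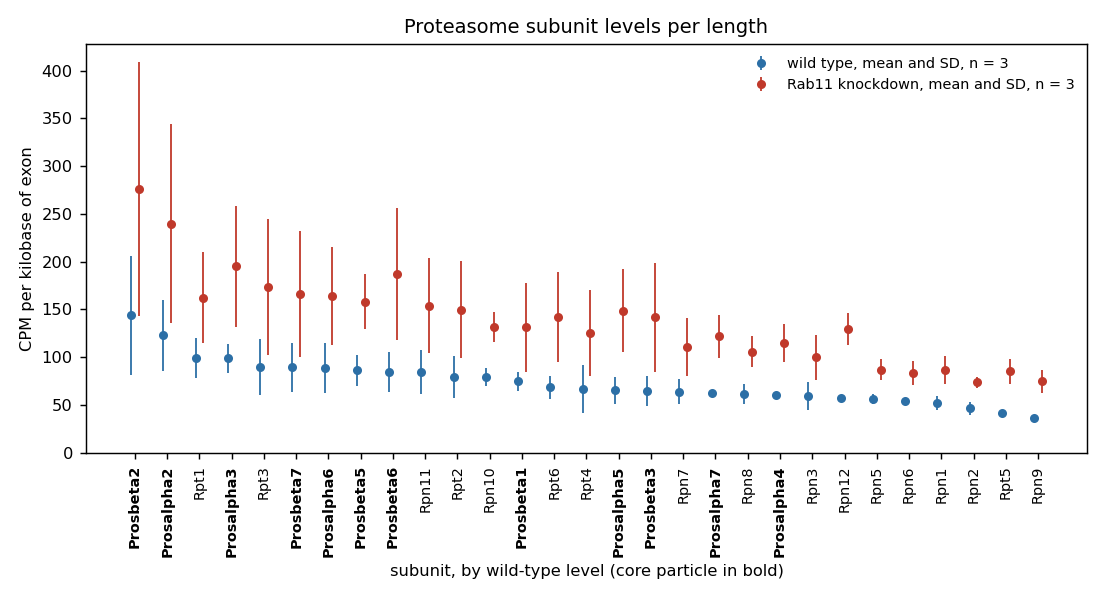
Mean and SD (n = 3) of the level of 29 proteasome subunit genes in CPM per kilobase of exon, ordered by the wild-type level (blue), with core particle genes in bold. The order runs from Prosbeta2, at 144 in the wild type and 276 in the knockdown (red), to Rpn9, at 35.8 and 74.5.

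The 13 duplicated paralogs had few reads or none, and none of them passed the filter on low counts. Prosalpha4T1, Prosalpha4T2, Prosalpha6T, Prosbeta4R1 and Prosbeta4R2 had 0 counts in each library, where 3 counts correspond to 0.0628 to 0.382 CPM. Summed over libraries, the paralogs had 89 knockdown and 26 wild-type counts, which is 0.0275% and 0.0213% of the counts of the 29 subunits. Rpt3R, a copy of the ATPase Rpt3, had 2, 7 and 28 counts in the knockdown against 0, 0 and 6 in the wild type. Rpt6R had 7, 2 and 18 counts against 2, 0 and 4, and Rpt4R had 0, 1 and 11 against 0, 0 and 2. Their highest counts lie in the deep replicate 3 libraries. In a fit without the filter none of the 8 paralogs with reads was called (adjusted p = 0.29 to 0.933). The remaining members, Prosalpha3T, Prosbeta2R1, Prosbeta2R2, Prosbeta5R1 and Rpn12R, had at most 4 counts in any library. Of 19 testis markers, 7 had 0 counts in every library (Mst84Da, Mst84Dc, Mst84Dd, Mst98Cb, ocn, ProtA and ProtB). Their summed level was 1.02 to 1.27 CPM in the knockdown and 0.254 to 1.40 CPM in the wild type.

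Of the subunits whose rows carry other names, Prosbeta4 and Sem1 rose and Rpn13 did not pass. Prosbeta4 and Rpn13, found under CG numbers, were added after their values were seen, and Sem1, a small lid subunit, was on a list of possible gaps in the rule. Prosbeta4 stood at 124, 191 and 97.1 CPM in the knockdown and at 63.2, 70.1 and 55.5 CPM in the wild type, with separate groups (log2 fold change 1.13 ± 0.28, adjusted p = 0.0348). Sem1 stood at 53.2, 70.1 and 66.2 CPM against 27.6, 34.5 and 38.4 CPM (0.91 ± 0.21, adjusted p = 0.0264). Each of these calls held in 1 of the 6 fits that left out a library, with adjusted p of up to 0.109 and 0.101. The ubiquitin receptor Rpn13, whose groups overlapped, stood at 213, 272 and 131 CPM against 160.0, 177 and 88.3 CPM, a log2 fold change of 0.53 ± 0.36 (adjusted p = 0.358, and 0.0691 with the block). This lies below the lowest of the 29 subunits.

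Among proteins that assemble the proteasome or bind to it, 2 of 6 tested genes rose and none fell, where 9.05% of all genes were called higher, with a median log2 fold change of 0.97. Uch-L5, a deubiquitinase of the regulatory particle, stood at 28.4, 32.8 and 30.7 CPM in the knockdown and at 13.7, 14.9 and 14.1 CPM in the wild type. Libraries of a group lay close together, and the call (1.10 ± 0.17, adjusted p = 0.00746) held in each of the 6 fits without a single library. The F-box gene ntc, whose protein binds the proteasome regulator PI31 in fly testis, rose (1.57 ± 0.41, adjusted p = 0.0395, and 0.075 to 0.11 without single libraries). It stood at 4.03, 3.96 and 7.43 CPM in the knockdown and at 2.29, 1.65 and 1.38 CPM in the wild type. The ratios of ntc within the replicate numbers were 1.76, 2.39 and 5.37. Without both replicate 3 libraries its log2 fold change was 0.99 (adjusted p = 0.157). Pomp, the chaperone of core assembly, stood at 209, 346 and 88.9 CPM against 79.3, 119 and 30.8 CPM. Its groups overlapped through replicate 3 (1.49 ± 0.61, adjusted p = 0.138), while the ratios within the replicate numbers were 2.63, 2.90 and 2.89 (adjusted p = 0.00276 with the block). With the block 4 of the 6 rose (15.2% of all genes), and the alternative activator REG and PI31 did not pass in either fit.

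Of 5 genes for ubiquitin and its activating enzyme, 1 rose, where 9.05% of all genes were called higher, with a median log2 fold change of 0.15. It was Uba1, the activating enzyme, which stood at 298, 312 and 376 CPM in the knockdown and at 175, 181 and 209 CPM in the wild type (0.80 ± 0.21, adjusted p = 0.0437). The groups were apart, and the call was lost in each fit without a single library (0.0747 to 0.154). The polyubiquitin gene Ubi-p63E stood at 728, 861 and 348 CPM against 344, 297 and 157 CPM (1.28 ± 0.44, adjusted p = 0.0883, and 0.00874 with the block). RpS27A, a fusion of ubiquitin with a ribosomal protein and the most abundant of the 5, stood at 1736, 3477 and 737 CPM against 3136, 3172 and 1169.8 CPM. Its groups overlapped, and its log2 fold change was -0.33 (adjusted p = 0.774), a sign that turns with library sizes alone (0.02).

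Of 8 shuttle factors and unfoldase genes, 1 rose without the block and 4 with it, and none fell, against 9.05% and 15.2% of all genes called higher. The median log2 fold change was 0.56. Ufd1, a cofactor of the unfoldase TER94, rose (0.82 ± 0.23, adjusted p = 0.0469, and up to 0.155 without single libraries). It stood at 52.3, 59.1 and 39.0 CPM in the knockdown and at 27.8, 33.1 and 24.2 CPM in the wild type. The autophagy receptor ref(2)P, the most abundant of the list, stood at 1296, 1402 and 1135 CPM in the knockdown and at 744, 625 and 589 CPM in the wild type (0.97 ± 0.27, adjusted p = 0.0508, and 0.0224 with the block). TER94 was at 0.85 ± 0.24 (adjusted p = 0.0523, and 0.0234 with the block).

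Around cnc no tested gene rose. Of cnc itself, its partner maf-S, its inhibitor Keap1 and the enzymes Pngl and sip3, Keap1 fell and the others did not pass, where 7.63% of all genes were called lower. Keap1 stood at 15.3, 8.48 and 18.4 CPM in the knockdown and at 29.8, 53.6 and 54.6 CPM in the wild type (-1.70 ± 0.36, adjusted p = 0.0202). The groups were separate, and the call did not hold with knockdown replicate 1 (0.0792), its replicate 2 (0.0529) or wild-type replicate 2 (0.0627) left out, or with library sizes alone (0.143). The level of cnc, the most abundant of the 5, was 293, 245 and 253 CPM against 381, 413 and 347 CPM, with separate groups. Its log2 fold change was -0.53 ± 0.22 (adjusted p = 0.138, 0.0936 with the block and 0.0423 with DESeq2). With library sizes alone the log2 fold change of cnc was -0.07 (adjusted p = 0.87). Among 4 other known targets of cnc, Gclc, the catalytic subunit of the enzyme that starts glutathione synthesis, fell and none rose. Its levels of 159, 151 and 168 CPM in the knockdown lay far below 699.5, 512 and 496 CPM in the wild type (-1.83 ± 0.25, adjusted p = 0.00458), and the call held in each fit without a single library. GstD1, the most abundant of the 4, stood at 1951, 2505 and 967 CPM against 1552, 1188 and 680.2 CPM, with overlapping groups and a log2 fold change of 0.67 ± 0.47 (adjusted p = 0.382). Gclm, the partner subunit of Gclc, was at -1.09 ± 0.31 (adjusted p = 0.0502, and 0.0119 with the block).

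**Figure D5:**
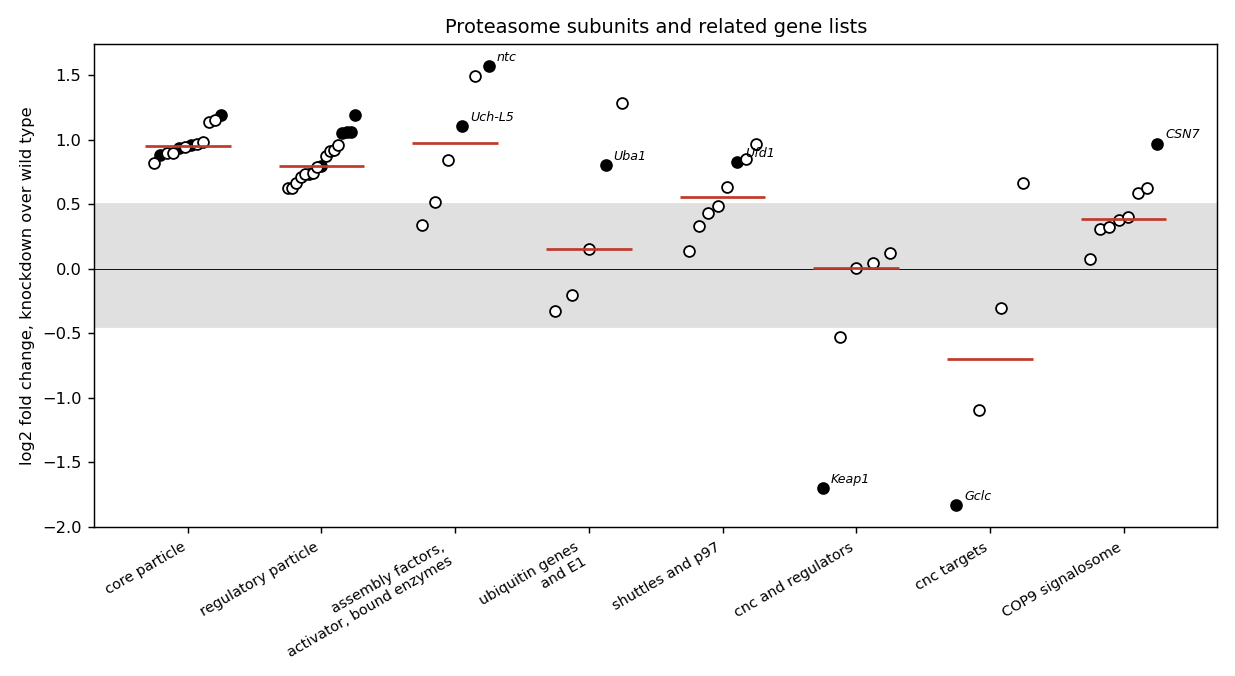
Log2 fold change of knockdown over wild type for genes of the core and regulatory particle and of 6 related lists, 1 point per gene, filled where the adjusted p was under 0.05, with list medians as red lines and the middle 50% of all genes tested as a grey band. Proteasome genes lie above the band, while Keap1 and Gclc lie far below it.

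Markers of other cell types differed between the groups as well. Of 5 markers of stem cells and enteroblasts, Dl and Sox21a rose and none fell. N had separate groups with the knockdown higher but did not pass (adjusted p = 0.068, and 0.0372 with the block). The markers esg and klu had overlapping groups and went opposite ways, at 0.40 and -0.44 (adjusted p = 0.354 and 0.348). The 5 summed to 112 to 123 CPM in the knockdown and 33.6 to 62.1 CPM in the wild type. Sox21a alone had means of 54.3 CPM (knockdown) and 4.79 CPM (wild type). The sum therefore does not show a rise across the list. The 7 enteroendocrine markers tested rose, where 9.05% of all genes were called higher. Their summed level was 506 to 646 CPM in the knockdown and 152 to 190.7 CPM in the wild type. The 6 enterocyte markers went both ways. Jon25Biii fell and none rose, where 7.63% of all genes were called lower and 9.05% higher. The other digestive enzymes that make up most of the summed level, betaTry and Amy-p, were at -1.68 and -0.80 (adjusted p = 0.141 and 0.466, and 0.02 and 0.183 with the block). Myo31DF was at -0.55 (adjusted p = 0.229). Jon25Biii, betaTry and Myo31DF had separate groups with the knockdown lower, and the groups of Amy-p overlapped. mex1 stood at 297 ± 70.0 CPM in the knockdown and 146 ± 48.1 CPM in the wild type (n = 3 each, log2 fold change 1.02, adjusted p = 0.0634, and 0.0168 with the block). nub was at 0.39 (adjusted p = 0.267), and both had separate groups with the knockdown higher. None of the matched markers of these 3 cell types was at 0. The yolk protein genes Yp1, Yp2 and Yp3, the ovary markers that were tested, had overlapping groups and did not pass. Yp1 and Yp2 were far lower in wild-type replicate 1 than in the other libraries. Yp1 stood at 122, 279 and 473 CPM in the knockdown and at 1.65, 165 and 131 CPM in the wild type. Yp2 stood at 47.7, 104 and 278 CPM against 2.16, 64.7 and 81.8 CPM. The cause of this gap was not tested. The part of these differences in the levels of the proteasome genes was not tested.

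The authors' deposited table of DESeq2 results lists 24 of the 29 subunits at an adjusted p under 0.1, each as higher in the knockdown, 15 of them under 0.05. In the authors' deposited table their log2 fold changes run from 0.59 for Rpn6 to 1.15 for Rpn12. For the other 5, Prosalpha7, Prosbeta2, Rpt1, Rpt4 and Rpt5, no value of that table is used here. DESeq2 run here on the counts gave adjusted p of 0.00103 for Prosalpha7 and 8.77e-05 for Rpt5.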

How the data were processed

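Gene-level read counts, not normalized, were deposited for each library. A second deposited file holds DESeq2 output with, per the file headers, 2 scores (the mean normalized count and the Wald statistic), the log2 fold change, its error, and raw and adjusted p-values. STAR 2.4.2a, HTSeq 0.6.1, DESeq2 and build BDGP5 are named, per the submitters' processing notes. No source used here gives the annotation, the strand setting or the handling of reads with several matches. Names were matched to RefSeq symbols for 15169 of 15391 rows, and exonic lengths come from a BDGP6 annotation, so no coordinates are given. Groups and replicate numbers come from the titles.

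Genes were kept by filterByExpr (minimum count 10) and tested on the whole table with edgeR 4.0.16 in R 4.3.3 (TMM, quasi-likelihood F-test, group as sole term, two-sided, Benjamini-Hochberg). Standard errors were taken from the fold change and F. The test was tested on simulated data, with 48 to 50 changed genes per fold size among 8280 tested. It recovered 0% of 1.5-fold, 8.33% of 2-fold, 61.2% of 4-fold and 90% of 8-fold changes, with 6 false calls. Fewer genes changed there than were called in these data, so the rates need not hold here. A subunit that did not pass is therefore not shown to be unchanged. Alternatives were DESeq2 1.42.0, other scalings, no filter, the replicate block and left-out libraries. Deviations of same-numbered libraries correlated at 0.14, 0.21 and 0.71 across genes, and the replicate number was used as a block in an alternative fit. The labels do not say what a number marks, and crossed pairs gave higher values for numbers 1 and 2: 0.34 for knockdown 1 with wild type 2, and 0.51 for knockdown 2 with wild type 1. Libraries of a group differed far beyond counting noise (chi-square per gene 67.7 to 376).

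The members and lists were chosen with earlier results of these data known. Values per library are given, by rule, for the proteolytic subunits and for the 3 smallest p and the extreme fold changes of each particle. They are also given for the called and the most abundant uncalled genes of each related list. The other called subunits, Rpn11 and Ubi-p63E were added after their values were seen. Counting error limits the paralogs and is small for the subunits.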

Additional observations from a re-analysis of the deposited data

How the results depend on the processing

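The direction of the 29 subunits was higher in each of the 12 alternatives, and none was called lower. The count called higher (10, with 4 in the core and 6 in the regulatory particle) moved with the setting. In the core it was 11 with library sizes alone, 7 with upper-quartile factors or DESeq2, 12 with the replicate block and 9 without both replicate 3 libraries. In the regulatory particle it was 16, 17 and 10 with library sizes alone, the block and DESeq2, and over both particles 27, 29 and 17. Leaving out single libraries gave 0 to 7 in the core, 1 to 4 in the regulatory particle and 1 to 11 over both. These fits hold fewer samples. The median log2 fold change then ran from 0.72 to 1.14 in the core, from 0.61 to 0.95 in the regulatory particle and from -0.014 to 0.039 over all genes. With library sizes alone it was 1.35 in the core, 1.22 in the regulatory particle and 0.47 over all genes, and the last was 0.11 with upper-quartile factors, 0.0084 without both replicate 3 libraries and -0.024 with DESeq2. The ratio of the library shares was 2.45, and 2.12 without the 20 most abundant genes. Over the subunits, Rab11 and the called genes of the related lists, 326 of the comparisons with an alternative kept direction and side of the threshold, 57 gained a call, 85 lost one and none turned sign; the cause was not tested. The searches of promoters for motifs and the comparison of protein sequences were not run. Depth limits the paralogs, whose counts are too few for a change to be detectable.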

Other observations

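The COP9 signalosome, which removes the ubiquitin-like protein Nedd8 from ubiquitin ligases, is built from subunits related to those of the proteasome lid. Of its 9 listed genes, 8 were tested, CSN7 rose and none fell, where 9.05% of all genes were called higher, with a median log2 fold change of 0.39 (range 0.07 to 0.97). CSN7 stood at 46.1, 60.9 and 34.3 CPM in the knockdown and at 25.4, 26.9 and 19.97 CPM in the wild type (edgeR, 0.97 ± 0.26 SE, adjusted p = 0.0427, and up to 0.129 with single libraries left out). CSN1b, the most abundant of those that did not pass, stood at 55.6, 59.2 and 39.3 CPM against 45.8, 42.1 and 29.1 CPM, with overlapping groups (0.40 ± 0.25, adjusted p = 0.324). With the replicate block 2 rose, against 15.2% of all genes. These counts lie near the shares over all genes. CSN1a had 0 counts in each library. Whether these subunits differ from those of the proteasome lid was not tested.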
